A study of Mus musculus with 2 samples.

Results

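The natriuretic peptide system is described here by 9 genes of mouse heart tissue. They are the peptide genes Nppa, Nppb and Nppc, the convertase genes Corin and Furin, the receptor genes Npr1, Npr2 and Npr3, and Mme, the gene of a degrading peptidase. The genes were picked by name for these functions, with earlier results of these data known. All 9 were found among the 24346 gene symbols of the deposited files. The study concerns dendritic cells and T helper cells in the infarcted heart. RNA sequencing of heart tissue kept in RNAlater was available for 1 library treated with probucol, a cholesterol-lowering antioxidant drug, and for 1 untreated library. Both libraries carry the labels HFD-MI, heart and age day 14, the series title speaks of myocardial infarction, and the labels do not say from which event the days count. HFD is read here as high-fat diet. The sources used here do not give strain, genotype, sex, dose, the part of the heart or the number of animals per library, nor do they explain the marks HypoE and CM in the column header of both libraries. With 1 library in each group, no difference below has a replicate check, and every comparison is of these libraries, not of the treatments.

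Natriuretic peptides are hormones of the heart that lower blood pressure and blood volume. Heart muscle makes the precursors of atrial natriuretic peptide (ANP, from Nppa) and B-type natriuretic peptide (BNP, from Nppb), and in the ventricle both genes are known to be raised by stretch, hypertrophy and infarction. Corin, a membrane-bound serine protease of heart muscle, cuts the ANP precursor, and furin, a protease of the secretory pathway, cuts the precursors of BNP and of C-type natriuretic peptide (CNP, from Nppc). ANP and BNP act through the guanylyl cyclase receptor encoded by Npr1, and CNP through the related receptor encoded by Npr2. The receptor encoded by Npr3 has no cyclase and removes peptides from the circulation, and neprilysin, encoded by Mme, degrades them.

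Nppb and Nppa lie in tandem on chromosome 4 in the GENCODE M21 annotation (GRCm38, the build that the submitters' processing notes name as mm10), with 13516 bases and 0 annotated genes between them. Nppb is at 147985788 to 147987205 and Nppa at 148000722 to 148002079. The stretches before their starts are shown because these 2 genes were the most abundant members and the 2 measured members that were lower in the probucol library. Both are the 250 bases before the RefSeq start on the plus strand (GRCm38.p6), chr4:148000472-148000721 for Nppa and chr4:147985650-147985899 for Nppb. Capitals mark matches, on either strand, to letters bound by known heart factors or by the general machinery, namely GATAA (GATA factors), CATTCC (the M-CAT element of TEAD factors), TNNAGTG (NKX2-5), GGTGT (T-box factors), TGANTCA (AP-1), TATAAA (the TATA box) and the CArG box of serum response factor.
Nppa promoter: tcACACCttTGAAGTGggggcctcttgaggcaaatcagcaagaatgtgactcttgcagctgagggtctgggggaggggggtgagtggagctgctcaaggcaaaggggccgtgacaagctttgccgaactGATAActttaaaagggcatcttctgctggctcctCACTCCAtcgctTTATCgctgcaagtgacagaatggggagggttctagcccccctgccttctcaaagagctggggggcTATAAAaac
Nppb promoter: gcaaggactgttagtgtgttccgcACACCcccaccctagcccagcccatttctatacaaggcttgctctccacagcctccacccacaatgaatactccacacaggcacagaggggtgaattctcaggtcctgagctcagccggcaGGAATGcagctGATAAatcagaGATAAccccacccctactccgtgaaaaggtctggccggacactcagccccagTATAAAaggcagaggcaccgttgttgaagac
GENCODE starts Nppb 112 bases before the RefSeq start, so the last 112 bases of its window lie in the first exon of that annotation.

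Both windows held 2 GATAA matches, 1 GGTGT match and 1 TATAAA match, and none of the matches overlapped another. TATAAA lay 9 to 4 bases before the RefSeq start of Nppa and 31 to 26 bases before that of Nppb. All Nppb matches but GGTGT lay in the 112 bases that GENCODE counts as exon. Only the Nppa window held TNNAGTG, with 2 matches, and only the Nppb window held CATTCC, with 1 match, among the letters searched. No match to TGANTCA or to the CArG box was found in either window. The CArG box was searched only as the exact letters CCWWWWWWGG, where W is A or T. Near matches, such as ctttaaaagg in the Nppa window, were not counted. Among all 32851 promoters of this length in the table, 22.6% held GATAA, 34.1% TNNAGTG, 36.2% GGTGT, 12.6% CATTCC, 12.4% TATAAA, 6.75% TGANTCA and 1.47% a CArG box. These letters are frequent, and a match is a description of the window and not a bound site.

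The depth of the libraries was similar. From the steps of low values, 1 FPKM (fragments per kilobase of transcript, relative to the mapped fragments of a library) was worth 6.67 fragments per kb of effective length with probucol and 7.46 without. Fragment numbers of the members were recovered from these steps with the shortest annotated transcript that has a RefSeq match, which gives the lowest number of fragments and so the widest interval. Intervals are exact at the 95% level and leave out every error but counting, and fragments copied by PCR are not separate molecules. Annotated genes lie on the opposite strand over 6 of the 9 members, Gm13054 over Nppa among them. The kit marks strand, but the sources used here do not say whether counting used it, so reads of such partners may be included.

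Levels ran from 0.179 FPKM for Nppc to 1565 FPKM for Nppa with probucol and from 0.482 to 4005 FPKM without, and their order was the same in both libraries. Per length, Nppa was the highest, followed by Nppb, Corin, Furin, Npr2, Npr1, Npr3, Mme and Nppc. Within each library, every neighbour in this order differed by more than its counting interval except Npr3 and Mme. Npr3 was 1.29 times Mme in the probucol library, with an interval from 0.825 to 2.02, and 1.01 times Mme in the untreated library, with an interval from 0.591 to 1.73. Nppa and Nppb together made up 0.310% of summed FPKM with probucol and 0.743% without.

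**Figure D1:**
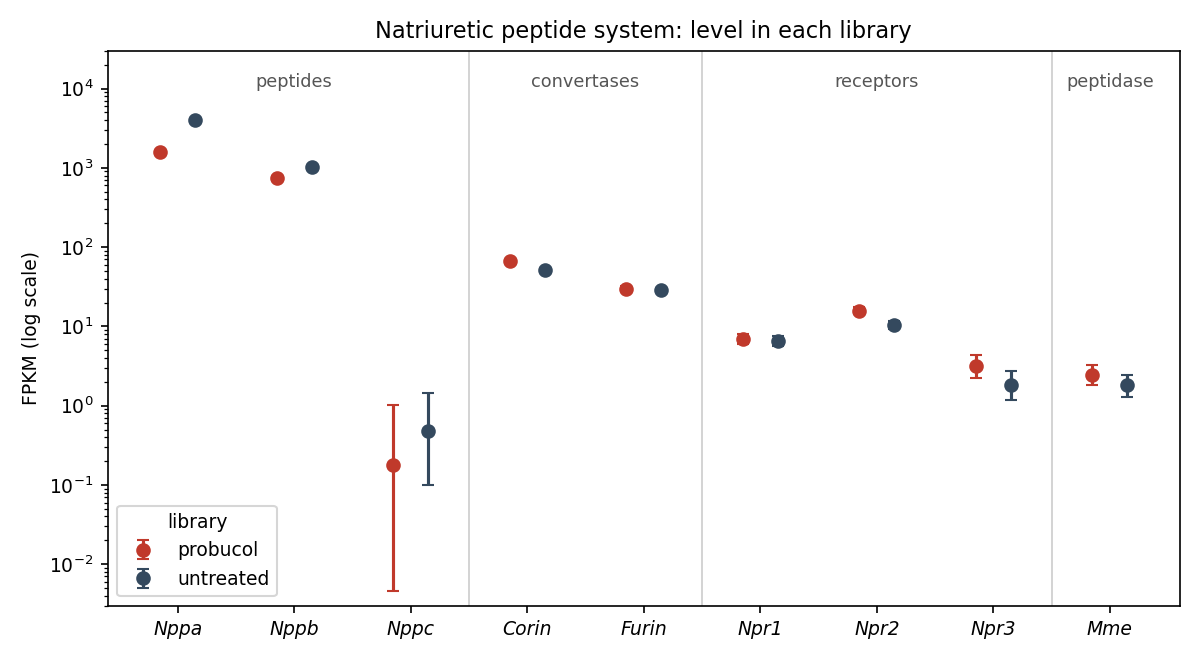
FPKM on a log axis of the 9 genes, grouped by role, with the probucol library left of the untreated library for each gene. Bars are exact 95% Poisson intervals of the recovered fragments (counting error only), smaller than the point for the abundant genes; the points of Nppa lie at 1565 and 4005 FPKM, and the bars of Nppc, which rests on 1 and 3 fragments, overlap.

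Nppa had the largest difference of the 8 genes counted as measured. It was listed at 1565 FPKM with probucol and at 4005 FPKM in the untreated library, from 6731 and 19279 fragments. The log2 ratio was -1.36, 2.56-fold lower with probucol, and the ratio of fragments at equal depth lay between 0.380 and 0.402. Among 19862 protein-coding genes matched by symbol, Nppa ranked 66th with probucol and 11th in the untreated library. The 10 genes above it in the untreated library, such as myoglobin (Mb), Myl2 and Tpm1, were genes of the contractile apparatus and of energy supply, and each of them had a positive log2 ratio, from 0.21 for Tnnc1, a troponin gene, to 0.62 for Fabp3, a fatty acid carrier gene. In bulk tissue, fewer cells of a type and less RNA per cell cannot be told apart.

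Nppb was also lower in the probucol library, by less. It was listed at 753 FPKM with probucol and at 1011 FPKM without, from 2817 and 4231 fragments. The log2 ratio was -0.42, 1.34-fold lower, and the ratio of fragments lay between 0.710 and 0.782, which does not overlap the interval of Nppa. Nppa was 2.08 times as abundant as Nppb with probucol and 3.96 times in the untreated library. Within each library the counting intervals of these ratios were narrow, 1.99 to 2.17 with probucol and 3.83 to 4.1 without. The neighbouring genes therefore differed between the libraries by unequal amounts, beyond counting error.

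Nppc was at the limit of detection. The gene is on chromosome 1 from 86666291 to 86670571 on the minus strand. Its 0.179 FPKM in the probucol library corresponds to 1 fragment and its 0.482 FPKM in the untreated library to 3 fragments. The estimates before rounding were 0.982 and 2.95 fragments. The ratio of 0.373 had a counting interval from 0.00711 to 4.65, and at this depth no difference could be detected. Nppc is the 1 member whose mean FPKM lay under the 0.5 that a gene needed to be counted as measured.

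The convertases differed from each other in how they compared between libraries. Corin lies on chromosome 5 from 72300025 to 72504473 and Furin on chromosome 7 from 80388585 to 80405436, both on the minus strand. Corin had 66.0 FPKM with probucol and 51.8 FPKM without, a log2 ratio of 0.35, and the ratio of fragments lay between 1.19 and 1.36. Furin had 29.9 FPKM with probucol and 28.8 FPKM without, a log2 ratio of 0.05, with an interval from 0.939 to 1.14 that includes no difference. Corin was 2.21 times as abundant as Furin with probucol and 1.80 times in the untreated library. The precursor gene Nppa and the gene of its convertase thus differed in opposite directions on the deposited scale. Corin was at -0.046 after scaling to the median of heart muscle genes, as described below. Nppa was 23.7 times Corin with probucol and 77.3 times Corin without.

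Among the receptors, Npr2 and Npr3 were higher with probucol and Npr1 differed by less than counting error. Npr1 lies on chromosome 3 from 90450591 to 90465866 on the minus strand, Npr2 on chromosome 4 from 43631935 to 43651244 on the plus strand, and Npr3 on chromosome 15 from 11839896 to 11907287 on the minus strand. Npr1, the receptor of ANP and BNP, had 6.89 FPKM with probucol and 6.49 FPKM without, from 177 and 186 fragments, with a ratio between 0.862 and 1.32. Npr2, the receptor of CNP, had 15.8 FPKM with probucol and 10.4 FPKM without, from 363 and 267 fragments, with a ratio between 1.30 and 1.79. Its log2 ratio was 0.58, just under the 1.5-fold limit. Npr3, the clearance receptor, had 3.18 FPKM with probucol and 1.84 FPKM without, a log2 ratio of 0.65 or 1.57-fold higher.

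The precision of Npr3 depends on which transcript carried its fragments. With the shortest of its 3 RefSeq-matched transcripts it rests on 37 fragments with probucol and 24 without, and the ratio lay between 1.01 and 3.02. With the longest it would rest on 141 and 92. Npr1 was 2.17 times Npr3 with probucol and 3.53 times in the untreated library. Npr2 exceeded Npr1 in both, by 2.29 times with probucol and 1.6 times without, although its ligand gene Nppc was nearly undetected.

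Mme, on chromosome 3 from 63241537 to 63386030 on the plus strand, was low in both libraries. It had 2.47 FPKM with probucol and 1.82 FPKM without, from 51 and 42 fragments for the shortest of 3 transcripts. The log2 ratio was 0.35. The ratio of fragments lay between 0.886 and 2.1, and at this depth no difference could be detected.

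**Figure D2:**
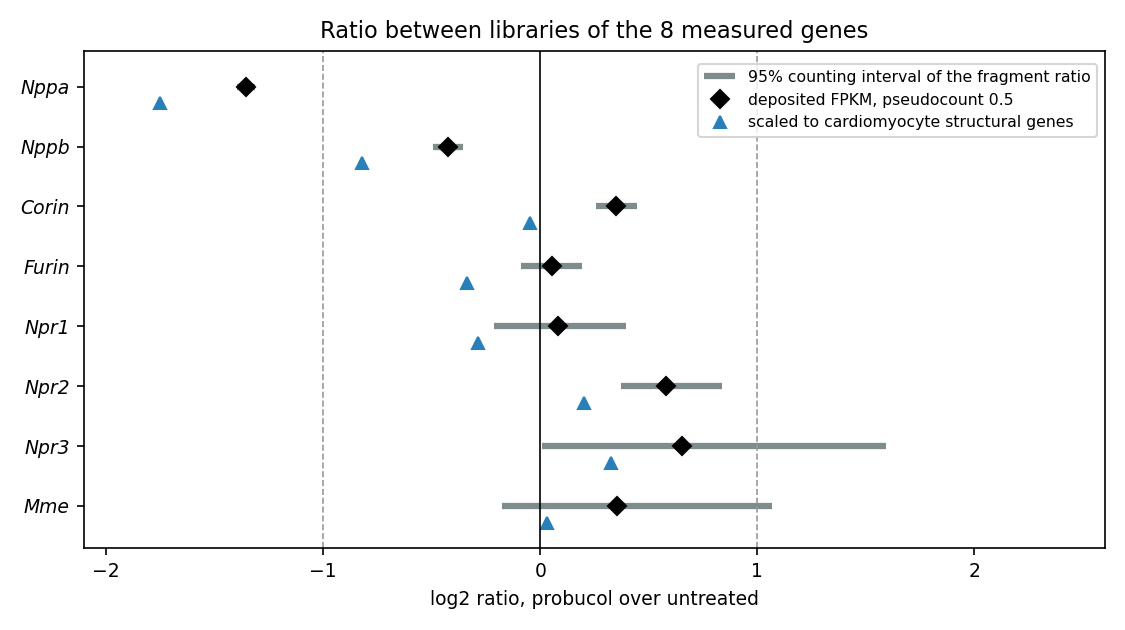
Log2 ratio of probucol over untreated for the 8 measured genes, with 0.5 FPKM added to both values (diamonds), the exact 95% interval of the fragment ratio (grey bars, counting error only, no added value) and the ratio after scaling both libraries to the cardiomyocyte structural genes (triangles). Nppa lies at -1.36 and is the 1 gene past the dashed 2-fold lines; after scaling, Corin and Mme lie next to 0 and Furin and Npr1 lie below it.

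Counted against all genes, the members held 1 gene past 2-fold. Of the 8 measured members, 1 was lower by at least 2-fold with probucol, Nppa, where 5.14% of the 12882 measured genes were. No member was at least 2-fold higher, where 1.07% of measured genes were. At 1.5-fold, 1 member was lower, against 12.0% of measured genes, and 1 was higher, Npr3, against 5.52%. This count moved with the settings, since a pseudocount of 0.1 also took Npr2 (0.60) past 1.5-fold, a pseudocount of 1 (0.56) and equal sums without the 10 most abundant genes (0.58) left Npr3 under it, and scaling to cardiomyocyte genes took Nppb (-0.82) past it downward and Npr3 (0.32) under it. With 8 genes these shares are near the background, and the median log2 ratio was 0.21 over the members and 0.01 over all measured genes. Of the members, 6 lay above 0 and 2 below. By rank, 2.5% of measured genes had a lower log2 ratio than Nppa and 17.1% a lower one than Nppb. A higher ratio was found in 4.07% of measured genes for Npr3 and in 5.68% for Npr2.

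**Figure D3:**
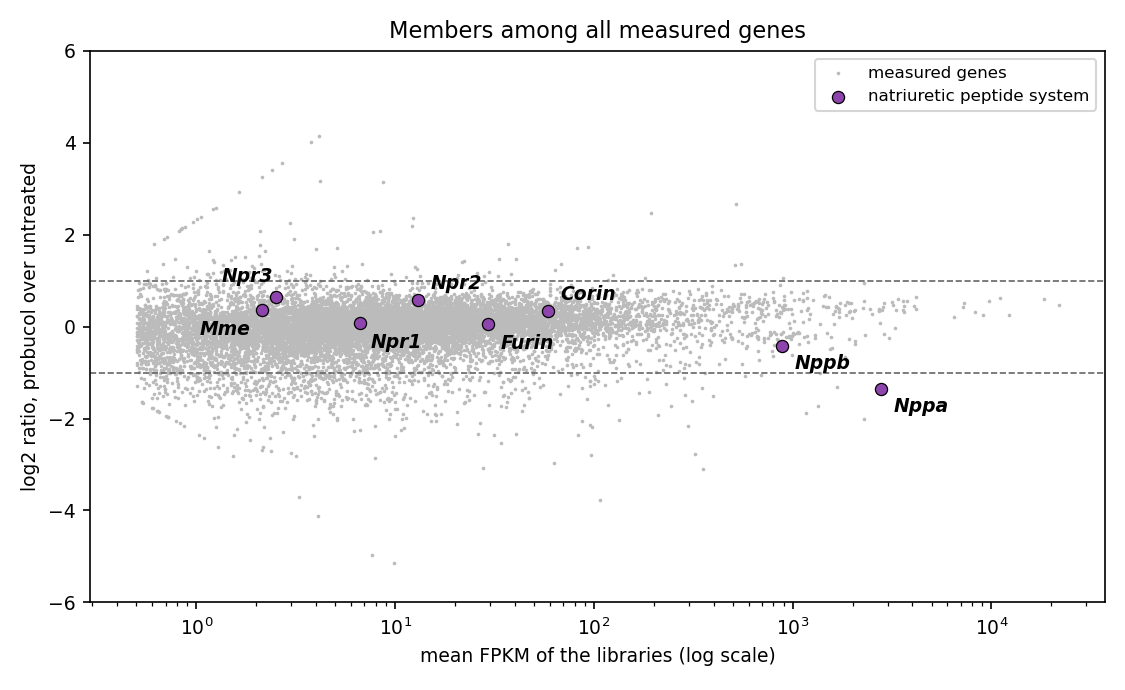
Log2 ratio of probucol over untreated against the mean FPKM of both libraries (log axis) for 12882 measured genes, with the 8 measured members named; 25 genes beyond a log2 ratio of 6 in either direction are not drawn. Nppa is the highest-expressed member and stands below the dashed 2-fold line, and the other 7 lie between the lines.

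Among abundant genes the position of Nppa can be described further. Of 961 genes with at least 100 FPKM in either library, 57 were at least 2-fold lower, 16 were 2-fold higher or more, and 32 had a lower log2 ratio than Nppa. The 5 of them with the nearest log2 ratio to Nppa were Fxyd5 (-1.34), Ctsb (-1.34), Ftl1 (-1.31), Col3a1 (-1.41) and Fcgr3 (-1.29). Over 2 libraries this likeness is a single value per gene, and any gene with such a ratio would be listed.

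The chamber that the tissue came from bears on Nppa, because atrial muscle makes far more of it than ventricular muscle. Of the genes that define atrial muscle, Myl7, an atrial myosin light chain, and Bmp10, an atrial growth factor, were listed at 0 in both libraries. A count of 0 allows up to 3 fragments, which would be 1.22 FPKM of Myl7 with probucol and 1.09 FPKM without. Sln, the atrial calcium pump regulator sarcolipin, had 0.958 FPKM with probucol, from 7 fragments, and was listed at 0 without. Myl4, another light chain of atria, had 7.53 FPKM with probucol and 5.75 without, from 33.1 and 28.3 estimated fragments. The ventricular light chain Myl2 had 22200 FPKM with probucol and 14740 without. Of these 4 atrial genes, Myl7 and Bmp10 were at 0 in both libraries, Sln was at 0 in the untreated library and Myl4 was detected in both. The part of atrial tissue in the Nppa values was not tested.

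All 12 atrial markers summed to 65.8 FPKM with probucol and 51.1 FPKM in the untreated library. Of these, 8 were measured, 5 lay above 0 and 3 below, and 0 were past 2-fold in either direction. The highest were Stard10, with 17.6 FPKM with probucol and 13.8 without, and Kcnj3, a potassium channel gene, with 16.8 FPKM with probucol and 10.5 without. The 10 ventricular markers summed to 38370 FPKM with probucol and 26080 without, and 8 of 10 lay above 0. That sum was carried by Myl2, Myl3 and Pln, and Myl3 is also among the cardiomyocyte structural genes. Other ventricular markers were as low as the atrial ones, such as Irx4, with 12.73 FPKM with probucol and 9.848 without, and Hey2, with 2.185 and 2.247.

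**Figure D4:**
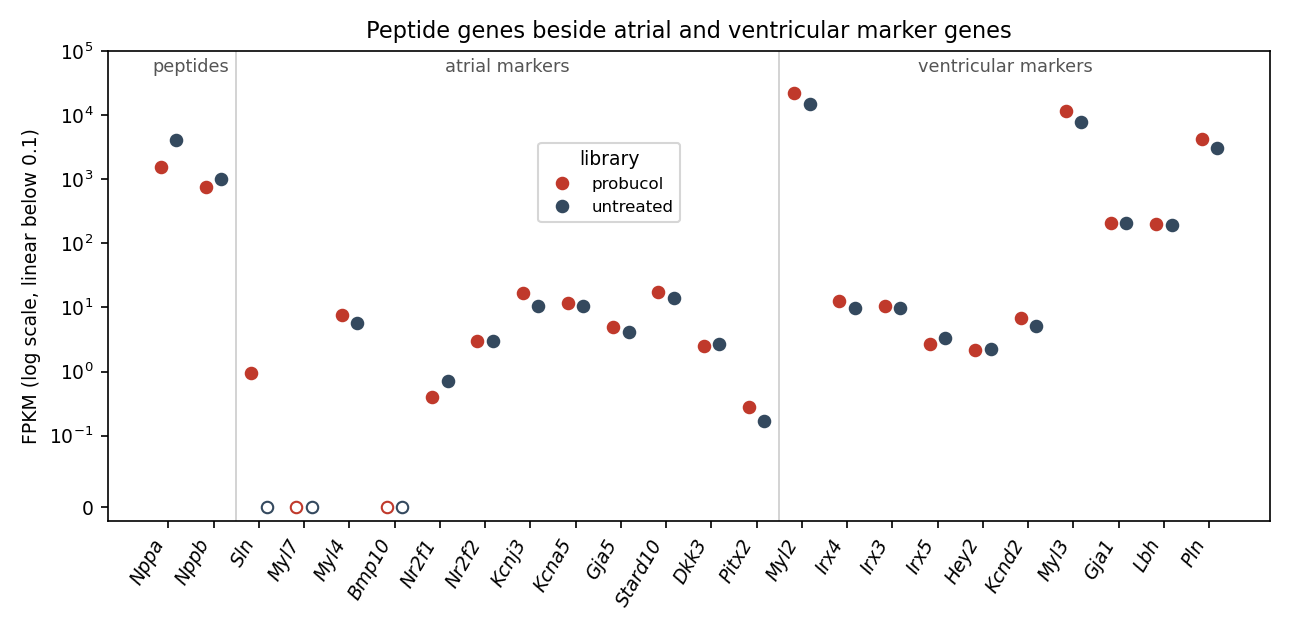
FPKM in the probucol library (left of each pair) and the untreated library (right) of Nppa, Nppb, 12 atrial markers and 10 ventricular markers, on an axis that is logarithmic above 0.1 and linear below; open circles are values listed at 0. Sln in the untreated library and Myl7 and Bmp10 in both are at 0, while the lowest value of Myl2, Myl3 and Pln is 3076 FPKM, that of Pln without probucol.

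Scaling to the median of heart muscle genes lowered the log2 ratio of every member. The abundant peptide genes then differed more and Corin was nearly level. All 16 cardiomyocyte structural genes were higher in the probucol library, with log2 ratios between 0.16 and 0.63 and a median of 0.40, and their sum was 74980 FPKM with probucol and 58120 without. Relative to the heavy chain gene Myh6, Nppa was at 0.351 with probucol and 1.33 without, and Nppb at 0.169 with probucol and 0.335 without. Corin was at 0.0148 of Myh6 with probucol and 0.0172 without, and at 0.0834 of Actn2 with probucol and 0.0933 without. Unscaled, its log2 ratio of 0.35 lay within the range of the 16 genes, so its sign after scaling depends on the gene used. With both libraries scaled to the median of the 16 genes, the log2 ratio was -1.75 for Nppa, -0.82 for Nppb and -0.046 for Corin. Under this scaling the sign also turned for Furin (-0.34), with a counting interval from -0.49 to -0.21 that left out 0. The intervals after scaling take the factor as fixed and leave out the spread of the 16 genes. With equal sums without the 10 most abundant genes the interval of Furin, -0.18 to 0.1, included 0. Under the scaling to the 16 genes the sign turned as well for Npr1 (-0.29), whose interval from -0.61 to 0.0 reached 0. Npr2 (0.20) and Npr3 (0.32) stayed above 0, but their counting intervals then included 0. These ran from -0.02 to 0.44 for Npr2 and from -0.38 to 1.2 for Npr3. With equal sums without the 10 most abundant genes the interval of Npr3, -0.08 to 1.5, also included 0. Scaling to the median of the 16 genes shifted the median of all measured genes to -0.35.

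Other cell types of the heart are known to express receptors of this system. The marker lists in this paragraph had median log2 ratios between -0.79 and 0.07. Their single genes were spread more widely, from -1.41 in the fibroblast list to 0.64 in the endocardium list. Over all marker lists the medians ran from -1.5 for macrophages to 0.53 for adipocytes, the latter over 4 measured genes. Npr2 had 0.58 and Npr3 0.65. Markers of vascular endothelium, a cell type known to carry Npr1, had a median log2 ratio of -0.09 over 10 genes, with 0 past 2-fold and sums of 371.5 FPKM with probucol and 391.2 without. Markers of endocardium, known to carry Npr3, had a median of 0.07 over 8 genes and sums of 52.8 FPKM with probucol and 54.4 without. Fibroblast markers had a median of -0.79, with 1 of 12 at least 2-fold lower, 11 of 12 below 0 and sums of 1453 FPKM with probucol and 2022 without. Smooth muscle and pericyte markers had a median of -0.14 and sums of 376.8 FPKM with probucol and 437.7 without. Their part in the values of Npr1, Npr2 and Npr3 was not tested.

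Adipocyte markers summed to 198.8 FPKM with probucol and 128.6 without, and 4 of 4 measured ones were above 0, with 1, Cfd, past 2-fold. That sum was carried by Pnpla2 and Plin4, which heart muscle also makes, while Adipoq had 0.729 FPKM with probucol and 0.654 without and Lep was listed at 0 in both. The 12 macrophage markers lay further from 0 by their median than any member, with 11 of them past 2-fold downward, a median of -1.5 and sums of 1092 FPKM with probucol and 3596 without. Neutrophil markers, of interest because human neutrophils carry neprilysin, had 7 of 10 genes measured, 3 of them at least 2-fold lower and 0 higher. Their summed level was 145.3 FPKM with probucol and 105.4 without, carried by S100a8 and S100a9. Markers of epicardium and mesothelium summed to 4.97 FPKM with probucol and 6.37 without. The part of these cells in the values of the members was not tested.

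Over all related lists below, 2 of 66 measured genes were at least 2-fold lower, or 3.03%, where 5.14% of all measured genes were, and 0 were 2-fold higher. These shares are near the background. Of 20 other convertases and peptidases 14 were measured, of which 1 passed 2-fold downward and 0 upward, and their median log2 ratio was -0.11. The 1 past 2-fold was Anpep, an aminopeptidase, with 8.83 FPKM with probucol and 22.3 without. Fap (-0.77), a protease of activated fibroblasts, Dpp4 (-0.65), Ace (-0.48), the angiotensin-converting enzyme, and Enpep (-0.27) followed. Pcsk6, which is known to activate corin in mice, had 11.8 FPKM with probucol and 10.4 without, and Ide, the insulin-degrading enzyme that also cuts natriuretic peptides, had 24.2 FPKM with probucol and 21.6 without. Ostn, the gene of a peptide of muscle and bone that binds the clearance receptor, was listed at 0 with probucol and at 0.126 FPKM without.

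Downstream of the receptors, cyclic GMP activates the protein kinase encoded by Prkg1 and is broken down by phosphodiesterases. Of 29 genes in this group 21 were measured, of which 1 passed 2-fold downward and 0 upward, around a median log2 ratio of 0.00. The 1 past 2-fold was Pde1c, a phosphodiesterase activated by calcium and calmodulin, with 7.98 FPKM with probucol and 16.9 without. Pde1a (-0.60), Vasp (-0.58), a substrate of the kinase, and Gucy1b3 (-0.47), a subunit of the nitric oxide receptor, were the next lowest. Pde9a, which acts on cyclic GMP made by the natriuretic peptide receptors, had 2.82 FPKM with probucol and 3.61 without. Prkg1 had 2.76 FPKM with probucol and 2.62 without, and Pde5a had 1.81 FPKM with probucol and 1.5 without.

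Transcription factors that are known to act on the Nppa and Nppb promoters lay mostly above 0. The list was not split into factors that raise and factors that lower these genes. Their part in the values of Nppa and Nppb was not tested. Of 26 factors, 25 were measured, 18 lay above 0 and 7 below, with 0 past 2-fold. Their median was 0.19, against 0.40 for the cardiomyocyte structural genes and 0.01 for all measured genes. Gata4 had 31.3 FPKM with probucol and 27.4 without, Nkx2-5 had 49.8 FPKM with probucol and 43.1 without, and Tbx5 had 6.28 FPKM with probucol and 4.66 without. Tead1, a factor of the M-CAT element found in the Nppb window above, had a log2 ratio of 0.44. Hand2 (0.66) and Tbx3 (0.57) were the highest. Atf3, a stress-induced factor, was the lowest, with 9.46 FPKM with probucol, against 18.3 FPKM without, and its log2 ratio was -0.92. Of 6 genes beside the peptide genes on chromosome 4, 6 were measured and 0 passed 1.5-fold, with Clcn6, a chloride transporter gene, at 3.21 FPKM with probucol and 2.28 without.

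**Figure D5:**
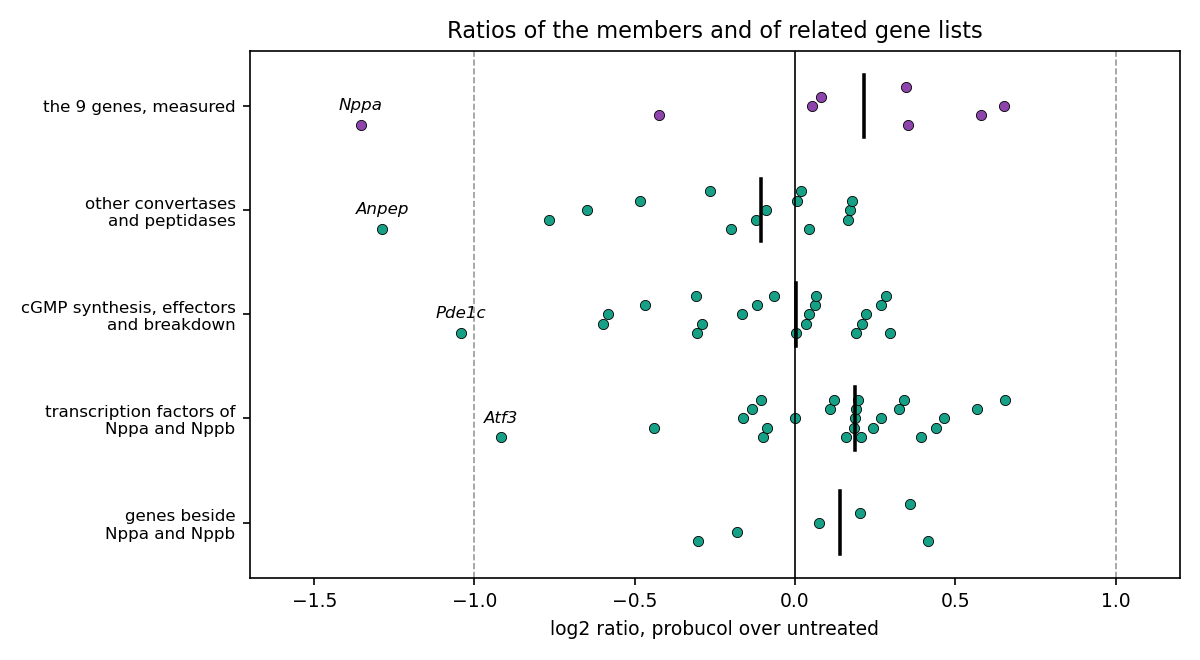
Log2 ratios of probucol over untreated for the 8 measured members and for 4 lists of related genes, 1 point per measured gene, with the vertical offset of points for visibility only and a black bar at each list's median. Nppa, Anpep and Pde1c lie beyond the dashed 2-fold line, and the named gene Atf3 lies just inside it.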

How the data were processed

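RNA sequencing of heart tissue was available as 1 file per library, 1 library per group, grouped by the treatment label. The deposited values are FPKM, 1 value for each of 24346 gene symbols. Per the submitters' processing notes, TopHat2 2.1.1, Bowtie2, Cuffdiff 2.2.1 and the build mm10 were used; the sources used here give neither their roles nor the annotation nor any scaling of the 2 libraries. RNA extraction used a miRNeasy kit and library preparation the TruSeq stranded mRNA kit, per the labels. FPKM is relative to the other transcripts of a library, so a change in abundant genes moves all values.

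From the files, log2((FPKM probucol + 0.5)/(FPKM untreated + 0.5)) was computed without rescaling in Python 3.11.15, which understates the difference of low genes. A gene was measured with a mean FPKM of at least 0.5 (12882 genes). No test was possible with 1 library in each group. The value of 1 fragment was taken from the steps of low FPKM in 2892 genes with 1 transcript of at least 800 bases (GENCODE M21), with 220 bases subtracted for the effective length; 81.4% of the low values with probucol and 82.0% of those without lay within 0.15 of a whole fragment. Ratios of fragments have exact binomial (Clopper-Pearson) intervals. Promoters came from RefSeq, where 9 of 9 members matched. The steps were tested on simulated data.

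All 9 members were to be named, and of related lists up to 6 measured genes with the largest ratio and those that bear on a member, and of marker lists up to 4. The members and lists were chosen with earlier results of these data known. Alternatives were the pseudocount, the filter and 3 rescalings.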

Additional observations from a re-analysis of the deposited data

How the results depend on the processing

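The count of members past 2-fold, 1 lower and 0 higher, was the same under both other pseudocounts and all 3 rescalings. At 1.5-fold the count moved, as given above. With both libraries scaled to the median of the cardiomyocyte structural list, the log2 ratios were -1.75 for Nppa, -0.82 for Nppb, -0.046 for Corin, -0.34 for Furin, -0.29 for Npr1 and 0.20 for Npr2. This factor of 1.32 follows from the higher level of these genes with probucol, and it put 1316 measured genes past 2-fold downward and 65 upward. With equal sums of FPKM without the 10 most abundant genes, Nppa had -1.45 and Nppb -0.52, while Furin (-0.038) and Npr1 (-0.004) changed sign within counting error. A pseudocount of 0.1 gave 229 measured genes at least 2-fold higher, against 138, as low genes then weigh more. In total 11 values moved by more than counting error or 1.5 times and 58 did not. Leaving out a library was not possible with 1 in each group. Depth limits Nppc, Mme and Npr3 most, at 1 and 3, 51 and 42, and 37 and 24 fragments with and without probucol.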
